A study of Mus musculus with 9 samples.

Results

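The genes studied here code for the proteins of the mitochondrial ribosome, and their transcripts were compared in mouse embryonic stem cells with and without β-catenin. They were picked by symbol from the array's annotation, as the genes whose symbol begins with Mrpl or Mrps followed by a digit, with pseudogenes left out. This gave 77 of the 19938 genes measured, and the rule uses no difference between groups. Of the 77, 50 code for proteins of the large subunit and 26 for proteins of the small subunit. The remaining gene, Mrps36, carries a ribosomal name although its product is known as a subunit of the α-ketoglutarate dehydrogenase complex. Mrpl53 shared its only feature with Ccdc142 and was left out.

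RNA came from 3 groups of mouse embryonic stem cells with 3 arrays each. Null Eα cells had lost both alleles of Ctnnb1, the gene for β-catenin, and were stably transfected with an E-cadherin and α-catenin fusion, whose promoter the labels do not name. Null cells had lost both alleles and carried no fusion. Flox cells, the controls, also had 1 allele deleted, and their other allele was flanked by loxP sites. All 3 groups were of a mixed S129S6-C57BL/6 background and were kept below confluence on gelatin in medium with 15% serum and 1000 U/ml leukaemia inhibitory factor. Whether replicates were separate clones or cultures of 1 clone is not given, so that p-values measure the spread between these samples, and genotype and clone cannot be told apart.

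Mitochondria keep a ribosome of their own, which makes the few respiratory chain subunits that mitochondrial DNA still codes for. Its ribosomal RNAs come from mitochondrial DNA, whereas all of its proteins come from nuclear genes spread over the chromosomes and are imported after synthesis in the cytosol. Many of them have a counterpart in the bacterial ribosome, and the others were gained during the evolution of mitochondria. Naive mouse embryonic stem cells respire as well as use glycolysis, whereas primed pluripotent cells lean more on glycolysis.

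Nuclear genes of mitochondrial proteins often carry sites for GABP, an ETS-family factor, for NRF1 and for YY1 close to their start. The 100 bases before the annotated start are shown for 3 genes on which results below turn, each of which holds 1 such motif. Mrpl36 lies at chr13:73330909-73331008, Mrpl22 at chr11:58171564-58171663 and Mrpl9 at chr3:94443236-94443335, all on the plus strand of GRCm38.p6, from RefSeq. Capitals mark the letters of the YY1 motif AAGATGGCG read on the other strand in Mrpl36, the GABP motif CCGGAAG in Mrpl22 and the NRF1 motif (GCGC, any 2 bases and GCGC) in Mrpl9.
Mrpl36: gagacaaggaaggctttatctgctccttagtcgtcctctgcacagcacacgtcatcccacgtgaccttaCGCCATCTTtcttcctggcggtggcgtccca
Mrpl22: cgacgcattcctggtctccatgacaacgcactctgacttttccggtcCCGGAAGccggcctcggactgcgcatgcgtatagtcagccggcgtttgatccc
Mrpl9: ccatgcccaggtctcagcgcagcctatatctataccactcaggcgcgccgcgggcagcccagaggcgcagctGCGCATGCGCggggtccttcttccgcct

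Such motifs were frequent in the family's promoters. RefSeq promoters of 300 bases (250 before and 50 after the start) were matched for 68 of the 77 genes. The GABP motif stood in 36.8% of them on either strand, against 13.6% of the 15614 promoters of measured genes. The NRF1 motif stood in 20.6% against 10.5%, and the YY1 motif in 11.8% against 2.29%. At least 1 of these 3 motifs was present in 41 members (60.3%), against 23.4% of all promoters. The E-box CACGTG, the letters bound by Myc, was present in 7.35% against 9.5%, the GC-box GGGCGGG in 42.6% against 39.7% and the box CCAAT in 38.2% against 41.7%. These are matches of letters, and binding was not measured.

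Most of the family was lower in cells without β-catenin, whether or not the fusion was present. Signals are log2 RMA values, differences are log2 differences of group means with limma's standard error, and a gene was called when its Benjamini-Hochberg adjusted p over all 19938 genes was under 0.05. In null Eα cells against flox cells 53 of the 77 genes were called lower and 12 higher, or 68.8% and 15.6%, while of all genes 63.7% were called, 31.6% lower and 32.1% higher. In null cells against flox cells 47 were called lower and 12 higher, or 61.0% and 15.6%, while of all genes 55.2% were called, 28.7% lower and 26.5% higher. Of the falls, 19 in null Eα and 20 in null cells were at least 2-fold, a size reached by 9.75% and 10.2% of all genes. Rises of at least 2-fold were seen for 3 genes in null Eα and 6 in null cells, against 2.22% and 5.03% of all genes. Both comparisons share the flox arrays.

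The median difference over the 77 genes was -0.50 in null Eα and -0.46 in null cells, against 0.07 and 0.06 over all genes. The family is made of brightly measured genes, since all but Mrps36 had a mean signal above 6.45, the median of all genes, and brighter genes as a whole were lower in both lines. Among genes at or above that median 52.1% were called lower and 18.9% higher in null Eα cells, with a median of -0.29, and 45.0% lower and 26.4% higher in null cells, with a median of -0.16. The arrays also differed in spread, with an interquartile range of 3.21 to 3.37 in null Eα, 3.41 to 3.46 in null and 3.75 to 3.84 in flox cells. After quantile normalization, which gives the arrays 1 distribution, 36 members were lower and 18 higher in null Eα cells and 41 were lower and 19 higher in null cells, with medians of -0.18 and -0.30. Of all genes 26.4% were then lower and 24.8% higher in null Eα cells, and 26.6% and 24.2% in null cells. When the comparison was kept to brighter genes, each centred on its chromosome, 29 were lower and 27 higher in null Eα cells and 36 were lower and 21 higher in null cells, with medians of -0.07 and -0.12. Among all genes on this last scale 28.2% were lower and 42.1% higher in null Eα cells, with a median of 0.12. In null cells 32.8% were lower and 43.1% higher, with a median of 0.11. The members' falls were thus near their rises in number in null Eα cells, and stayed above them in null cells. The members' medians lay below those of the genes on that scale in both lines.

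On single arrays the median signal of the 77 genes was 8.58, 8.52 and 8.60 in null Eα, 8.53, 8.44 and 8.48 in null and 9.0, 9.12 and 9.09 in flox cells. All 6 arrays without β-catenin lay below all 3 flox arrays. The median over brighter genes was 7.99 to 8.13 in null Eα, 8.18 to 8.24 in null and 8.46 to 8.53 in flox cells, again without overlap. Replicates of a group lay close together, with a median SD per gene of 0.10 in null Eα, 0.08 in null and 0.07 in flox cells. The largest SDs were 0.33 for Mrps12 in null Eα, 0.27 for Mrpl41 in null and 0.21 for Mrpl12 in flox cells. Called or not, the arrays of both groups did not overlap for 69 of the 77 genes in null Eα against flox, beside 69.5% of all genes, for 65 in null against flox, beside 67.4%, and for 38 in null Eα against null, beside 43.1%. Of the 9969 brighter genes the groups did not overlap for 7609, 7974 and 5600 in the same order.

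**Figure D1:**
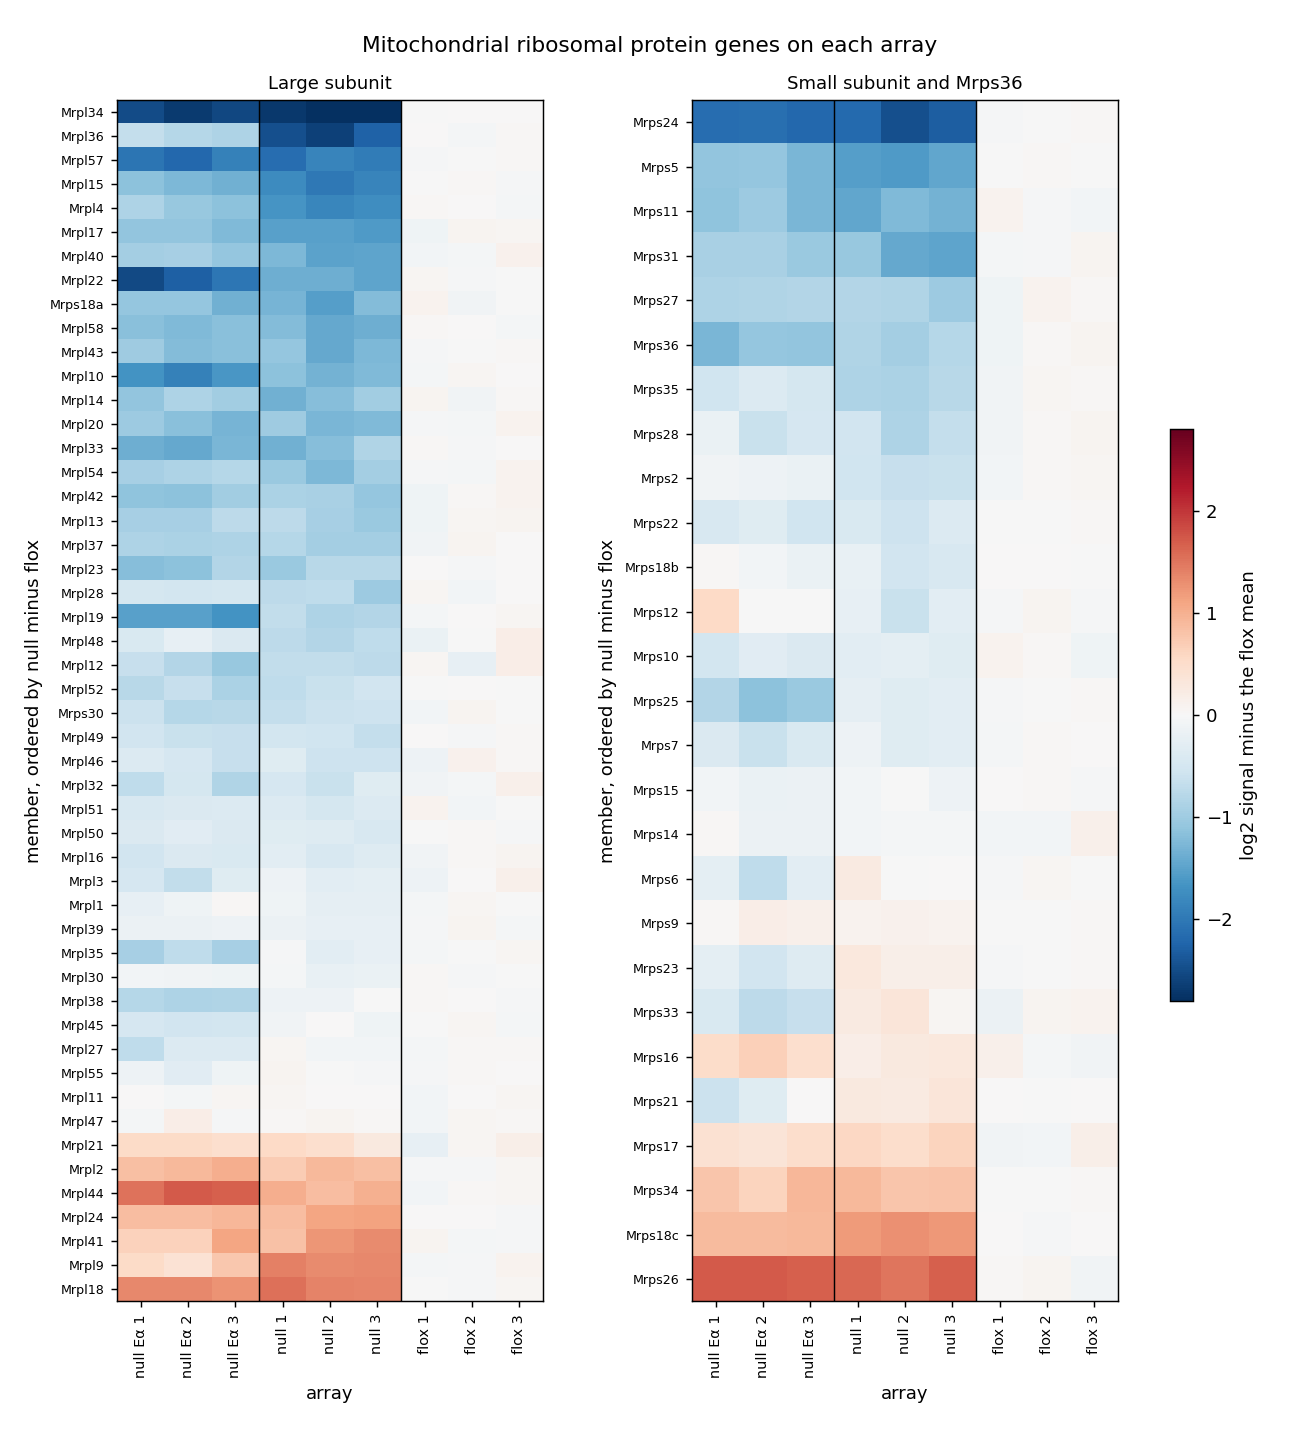
Signal of each of the 77 genes on each of the 9 arrays, as the log2 signal minus that gene's mean over the flox arrays (blue lower, red higher), with the large subunit on the left and the small subunit with Mrps36 on the right, ordered by the difference of null from flox. Most rows are blue on the null Eα and null arrays, and the red rows at the bottom of each panel include Mrpl18, Mrpl9, Mrps26 and Mrps18c.

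In bulk RNA, fewer cells of a type and less RNA per cell cannot be told apart. Of 16 fibroblast markers 14 were higher in null Eα and 14 in null than in flox cells, with 0 lower in either, and the log2 of their summed signal was 12.27 to 12.65 in null Eα, 13.17 to 13.51 in null and 9.78 to 9.93 in flox cells. None was at 0, and the lowest was Lum on every array but null replicate 2, where it was Meox1. Of 8 embryonic stem cell markers 4 were lower and 1 higher in null Eα cells, and 6 lower and 2 higher in null cells, with a summed signal of 14.08 to 14.13 in null Eα, 13.33 to 13.53 in null and 14.25 to 14.28 in flox cells. Pou5f1, a defining factor of pluripotent cells, averaged 11.36 in null Eα, 10.79 in null and 11.45 in flox cells. The part of these marker shifts in the results on mitochondrial ribosomal proteins was not tested. Ctnnb1 itself was lower by 0.93 ± 0.07 in null Eα and by 0.65 ± 0.07 in null cells (adjusted p = 2.66e-06 and 2.82e-05), and its array value also covers exons outside the deletion.

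The large subunit held the largest falls. Of its 50 genes, 38 were called lower and 7 higher in null Eα cells, with a median of -0.75, and 33 lower and 7 higher in null cells, with a median of -0.62. The shares called lower were 76.0% and 66.0%, beside 52.1% and 45.0% of brighter genes. Of the 30 with a bacterial counterpart 21 were lower and 5 higher in null Eα, and 17 lower and 5 higher in null cells. Of the 18 without one 15 were lower and 2 higher in null Eα, and 14 lower and 2 higher in null cells. Mrps18a and Mrps30, named for the small subunit but found in the large one, were lower in both comparisons.

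Mrpl34, a short protein with a bacterial counterpart (feature 10572613), showed the largest fall. Its signal was 8.06, 7.90 and 8.02 in null Eα, 7.87, 7.71 and 7.69 in null and 10.55, 10.57 and 10.58 in flox cells. It fell by 2.58 ± 0.08 in null Eα cells and fell by 2.81 ± 0.08 in null cells (adjusted p = 1.58e-08 and 1.9e-09, limma, n = 3 arrays per group), leaving 16.7% and 14.2% of the flox signal. Mrpl34 lies on chromosome 8, whose other brighter genes shifted by -0.67 in null Eα and -0.54 in null cells, as does the small subunit gene Mrps31, which fell by 0.95 and 1.31.

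Mrpl57, without a bacterial counterpart, had signals of 7.30, 7.16 and 7.46 in null Eα, 7.22, 7.50 and 7.39 in null and 9.34, 9.35 and 9.39 in flox cells. It fell by 2.05 ± 0.10 and 1.99 ± 0.10 (adjusted p = 1.13e-07 and 7.51e-08), and null Eα and null arrays overlapped. Mrpl15, with a bacterial counterpart, gave 9.10, 8.99 and 8.91 in null Eα, 8.50, 8.24 and 8.39 in null and 10.23, 10.29 and 10.22 in flox cells. Its 3 groups did not overlap, with falls of 1.25 ± 0.09 and 1.87 ± 0.09 (adjusted p = 9.76e-07 and 4.46e-08).

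Mrpl4 and Mrpl22, which are among the proteins whose bacterial counterparts line the tunnel through which the new chain leaves, were lower in both lines. Mrpl4 had signals of 8.97, 8.78 and 8.69 in null Eα, 8.17, 8.0 and 8.09 in null and 9.87, 9.84 and 9.79 in flox cells, falls of 1.02 ± 0.09 and 1.75 ± 0.09 (adjusted p = 4.31e-06 and 7.7e-08). Mrpl22 had signals of 5.99, 6.22 and 6.49 in null Eα, 7.15, 7.15 and 7.03 in null and 8.56, 8.48 and 8.49 in flox cells, falls of 2.28 ± 0.11 and 1.40 ± 0.11 (adjusted p = 1.48e-07 and 2.35e-06). The line further from flox was null for Mrpl4 and null Eα for Mrpl22.

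Genes of the stalk, where translation factors dock, did not move alike. Mrpl10, whose bacterial counterpart anchors the stalk, had signals of 9.37, 9.15 and 9.40 in null Eα, 9.88, 9.72 and 9.80 in null and 10.99, 11.08 and 11.04 in flox cells. It fell by 1.73 ± 0.09 and 1.24 ± 0.09 (adjusted p = 1.49e-07 and 8.14e-07). Mrpl12, the stalk protein itself, had signals of 9.05, 8.87 and 8.64 in null Eα, 9.0, 9.0 and 8.95 in null and 9.74, 9.46 and 9.87 in flox cells, and fell by 0.84 ± 0.12 and 0.71 ± 0.12 (adjusted p = 2.08e-04 and 6.2e-04). Mrpl11, at the stalk's base, gave 9.88 to 9.98 in null Eα, 9.93 to 9.98 in null and 9.85 to 9.98 in flox cells. Its groups overlapped and its differences were 0.00 ± 0.07 and 0.02 ± 0.07 (adjusted p = 0.963 and 0.786), but after quantile normalization it was called higher in both lines, by 0.28 and 0.20.

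Mrpl19, whose bacterial counterpart sits at the interface of the subunits, had signals of 7.95, 7.96 and 7.80 in null Eα, 8.77, 8.62 and 8.65 in null and 9.42, 9.48 and 9.52 in flox cells. It fell by 1.56 ± 0.08 and 0.79 ± 0.08 (adjusted p = 1.4e-07 and 9.38e-06). Mrps18a, a member of a family of 3 S18-type proteins, fell by 1.17 ± 0.11 and 1.35 ± 0.11, and Mrps30 by 0.73 ± 0.08 and 0.62 ± 0.08. Mrpl39, without a bacterial counterpart, was called lower in null cells (-0.20 ± 0.07, adjusted p = 0.0268), and stood at -0.15 ± 0.07 in null Eα cells (adjusted p = 0.0729). The null call was lost without flox replicate 2, null replicate 2 or null replicate 3, and after quantile normalization (-0.10).

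Further falls in the large subunit ran through genes of both kinds. Among genes with a bacterial counterpart, Mrpl17, Mrpl20, Mrpl33, Mrpl14, Mrpl23, Mrpl13, Mrpl32, Mrpl28 and Mrpl16 were called lower in null Eα cells by 1.37 (Mrpl33) to 0.46 (Mrpl16) and in null cells by 1.55 (Mrpl17) to 0.37 (Mrpl16). Among the others, Mrpl58, a peptidyl-tRNA hydrolase that became a ribosomal protein, fell by 1.19 and 1.34. Mrpl40, Mrpl42, Mrpl43, Mrpl54, Mrpl37, Mrpl52, Mrpl49, Mrpl46, Mrpl51, Mrpl50 and Mrpl48 were called lower in null Eα cells by 1.13 (Mrpl43) to 0.35 (Mrpl48) and in null cells by 1.41 (Mrpl40) to 0.39 (Mrpl50). Mrpl35, Mrpl3, Mrpl27, Mrpl55, Mrpl45 and Mrpl38 were called lower in null Eα cells, by 0.85 (Mrpl35) to 0.20 (Mrpl55), and lay between -0.24 and 0.01 in null cells without a call. The Mrpl55 call was lost without any 1 of the flox arrays, null replicate 2 or null Eα replicate 2, with the replicate block and with flox and null Eα arrays fitted alone, and its difference was 0.12 after quantile normalization and 0.20 with each chromosome centred. After quantile normalization the null Eα calls of Mrpl28, Mrpl16, Mrpl46, Mrpl51, Mrpl50, Mrpl48, Mrpl3 and Mrpl27 were also lost. The null calls of Mrpl16 and Mrpl50 were lost with them. Mrpl1, Mrpl30 and Mrpl47 were called against flox in neither line, with differences of -0.20 to 0.04.

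The 7 large subunit genes called higher against flox were Mrpl18, Mrpl44, Mrpl24, Mrpl2, Mrpl41, Mrpl9 and Mrpl21. Mrpl18, whose bacterial counterpart binds the smaller ribosomal RNA of the large subunit, had signals of 10.68, 10.67 and 10.58 in null Eα, 10.88, 10.71 and 10.69 in null and 9.32, 9.29 and 9.38 in flox cells. It rose by 1.32 ± 0.08 in null Eα and 1.43 ± 0.08 in null cells (adjusted p = 3.47e-07 and 1.19e-07). Mrpl44, a protein with a ribonuclease III fold whose mutation in humans causes a cardiomyopathy, had signals of 8.65, 8.85 and 8.81 in null Eα, 8.15, 8.0 and 8.12 in null and 7.05, 7.17 and 7.18 in flox cells. Its 3 groups did not overlap, with rises of 1.63 ± 0.08 and 0.96 ± 0.08 (adjusted p = 1.53e-07 and 3.65e-06).

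Mrpl24, with a bacterial counterpart, rose by 0.89 ± 0.08 and 1.03 ± 0.08, and Mrpl2, whose bacterial counterpart lies near the centre that joins amino acids, by 0.92 ± 0.08 and 0.82 ± 0.08. Mrpl21 rose by 0.52 and 0.43. Mrpl9, whose bacterial counterpart reaches out from the large subunit, had signals of 8.93, 8.81 and 9.16 in null Eα, 9.81, 9.72 and 9.75 in null and 8.35, 8.36 and 8.49 in flox cells, and rose by 0.57 ± 0.09 and 1.36 ± 0.09 (adjusted p = 4.87e-04 and 7.82e-07). Mrpl41, without a bacterial counterpart, had signals of 7.94, 7.93 and 8.40 in null Eα, 8.11, 8.52 and 8.60 in null and 7.37, 7.24 and 7.26 in flox cells, and rose by 0.80 ± 0.15 and 1.12 ± 0.15 (adjusted p = 0.00117 and 1.12e-04). A second, dimmer Mrpl41 feature differed by only 0.19 and 0.26, so the size of its rise depends on the feature.

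**Figure D2:**
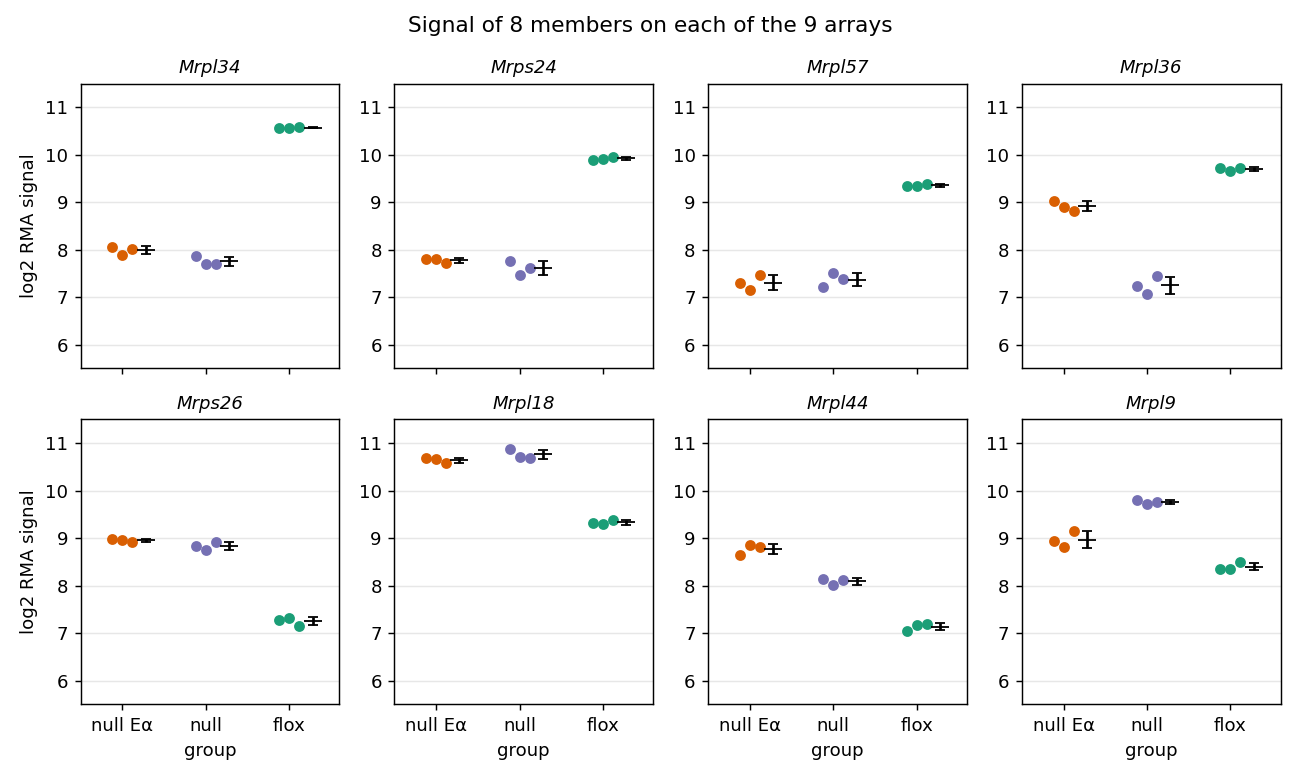
Log2 RMA signal of 8 genes on each array (points) with the mean and SD over 3 arrays beside them (bars), for null Eα, null and flox cells. In the top row the flox points lie above both other groups, with Mrpl36 at 8.82 to 9.03 in null Eα and 7.08 to 7.44 in null cells, and in the bottom row the flox points lie below both.

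The small subunit was split more evenly. Of its 26 genes, 14 were called lower and 5 higher in null Eα cells, with a median of -0.40, and 13 lower and 5 higher in null cells, with a median of -0.28. These shares (53.8% and 50% lower, 19.2% higher in each) lay close to those of brighter genes in null Eα cells (52.1% lower, 18.9% higher) and in null cells (45.0% lower, 26.4% higher). Of the 16 with a bacterial counterpart 7 were lower and 3 higher in each line, and of the 10 without one 7 were lower and 2 higher in null Eα and 6 lower and 2 higher in null cells. Whether the 2 subunits differ was not tested.

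Mrps24, whose bacterial counterpart guides the messenger RNA into the ribosome, had signals of 7.80, 7.81 and 7.72 in null Eα, 7.76, 7.47 and 7.62 in null and 9.90, 9.91 and 9.96 in flox cells. It fell by 2.15 ± 0.08 in null Eα and by 2.31 ± 0.08 in null cells (adjusted p = 4.34e-08 and 1.03e-08), the largest falls of the small subunit. Mrps5, whose bacterial counterpart bears on the accuracy of translation, had signals of 9.04, 9.07 and 8.86 in null Eα, 8.61, 8.56 and 8.68 in null and 10.13, 10.17 and 10.12 in flox cells. It fell by 1.15 ± 0.08 and 1.52 ± 0.08 (adjusted p = 8.49e-07 and 9.06e-08). Mrps11, of the platform, had signals of 6.81, 6.93 and 6.66 in null Eα, 6.49, 6.69 and 6.61 in null and 8.04, 7.91 and 7.87 in flox cells, and fell by 1.14 ± 0.09 and 1.34 ± 0.09 (adjusted p = 3.27e-06 and 7.58e-07).

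Other falls in this subunit were smaller. Mrps22, without a bacterial counterpart and mutated in a human mitochondrial disease, fell by 0.45 ± 0.08 and 0.46 ± 0.08 (adjusted p = 9.21e-04 and 7.82e-04). Its null Eα difference was -0.12 without a call after quantile normalization. Among brighter genes centred by chromosome its differences were -0.16 and -0.15 without a call. Mrps25 fell by 1.00 ± 0.09 and 0.30 ± 0.09, and its null call was lost without flox replicate 3 or null replicate 2. After quantile normalization its null difference was -0.12 without a call. Mrps7, whose bacterial counterpart starts assembly of the head, fell by 0.48 ± 0.08 and 0.26 ± 0.08 (adjusted p = 6.65e-04 and 0.0241). Its null call was lost without flox replicate 2, flox replicate 3, null replicate 2 or null replicate 3. With each chromosome centred its differences were -0.09 and -0.01 without a call, and after quantile normalization -0.17 and -0.07 without a call.

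Mrps31, Mrps27, Mrps35, Mrps28 and Mrps10 were called lower in null Eα cells by 0.95 (Mrps31) to 0.41 (Mrps10) and in null cells by 1.31 (Mrps31) to 0.30 (Mrps10). Mrps23, Mrps33 and Mrps6 were called lower in null Eα cells, by 0.40, 0.60 and 0.42, and stood at 0.21, 0.21 and 0.08 in null cells without a call. The null Eα difference of Mrps33 was -0.28 without a call after quantile normalization and 0.17 among brighter genes centred by chromosome. The null Eα calls of Mrps35, Mrps28, Mrps10, Mrps23 and Mrps6 and the null call of Mrps10 were also lost after quantile normalization. Mrps2 and Mrps18b were called lower in null cells, by 0.61 ± 0.07 and 0.39 ± 0.10 (adjusted p = 3.28e-05 and 0.00551), and stood at -0.14 ± 0.07 and -0.08 ± 0.10 in null Eα cells.

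The 5 small subunit genes called higher were Mrps26, Mrps18c, Mrps34, Mrps17 and Mrps16. Mrps26, without a bacterial counterpart, had signals of 8.97, 8.97 and 8.91 in null Eα, 8.84, 8.75 and 8.92 in null and 7.28, 7.31 and 7.15 in flox cells. It rose by 1.70 ± 0.08 in null Eα and 1.59 ± 0.08 in null cells (adjusted p = 8.18e-08 and 6.08e-08), the largest rises of the family. Mrps18c, the closest of the S18-type proteins to the bacterial one, had signals of 9.80, 9.80 and 9.81 in null Eα, 10.10, 10.18 and 10.13 in null and 8.92, 8.87 and 8.93 in flox cells, and rose by 0.90 ± 0.06 and 1.23 ± 0.06 (adjusted p = 1.2e-06 and 1.01e-07). Of the S18-type genes, Mrps18c was thus called higher and Mrps18a lower against flox in both lines, and Mrps18b lower in null cells.

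Mrps34 rose by 0.78 and 0.83, Mrps17 by 0.43 and 0.57, and Mrps16 by 0.55 and 0.25. The null call of Mrps16 (adjusted p = 0.0339) was lost without flox replicate 2, flox replicate 3, null replicate 2 or null replicate 3. Mrps12, whose bacterial counterpart guards decoding, was called against flox in neither line, with differences of 0.17 ± 0.16 and -0.39 ± 0.16 (adjusted p = 0.343 and 0.0599), but its null difference was called lower under 6 of 18 alternatives, with the replicate block among them (adjusted p = 0.0421). Mrps15, Mrps14, Mrps9 and Mrps21 were also not called, with Mrps15 at -0.15 ± 0.07 and -0.07 ± 0.07 and Mrps21 at -0.31 and 0.29 (adjusted p = 0.0575 and 0.0796). Mrps21 was called lower in null Eα cells under 5 of the 18 alternatives, with the replicate block among them (adjusted p = 0.0437), and higher in null cells under 4. Mrps36, the dehydrogenase subunit, had signals of 5.64, 5.83 and 5.82 in null Eα, 6.08, 5.96 and 6.12 in null and 6.81, 6.95 and 7.0 in flox cells, and fell by 1.16 ± 0.09 and 0.87 ± 0.09 (adjusted p = 1.85e-06 and 1.12e-05).

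Null Eα cells were also compared with null cells, which carried no fusion. The fusion and the clone cannot be told apart in this comparison. The family as a whole had a median difference of 0.00, against 0.05 over all genes and -0.08 over brighter genes. Of the 77 genes, 15 were called lower and 16 higher, or 19.5% and 20.8%, while of all genes 31.7% were called, 18.1% lower and 13.6% higher. Among brighter genes 30.9% were lower and 15.9% higher. Only Mrpl36 changed at least 2-fold, upward, as did 1.7% of all genes, and 0 fell that far, against 3.13%. The count of genes called higher was 10 without null replicate 2 and 10 without null Eα replicate 1. Of all genes 10.7% and 10.2% were then higher. Quantile normalization gave 15 members lower and 21 higher, beside 15.8% and 14.4% of all genes.

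Mrpl36, a small zinc-binding protein in bacteria (feature 10406026), had signals of 9.03, 8.91 and 8.82 in null Eα, 7.24, 7.08 and 7.44 in null and 9.71, 9.65 and 9.73 in flox cells. Null Eα cells exceeded null cells by 1.67 ± 0.10 (adjusted p = 2.16e-06). Against flox it fell by 0.78 ± 0.10 in null Eα cells and fell by 2.44 ± 0.10 in null cells (adjusted p = 7.66e-05 and 2.11e-08). Its 3 groups did not overlap. The comparison of the 2 lines shares the null arrays with that of null against flox, so both differences of a gene rest on the same null values.

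Mrpl4 was higher by 0.73 ± 0.09, Mrpl44 by 0.68 ± 0.08 and Mrpl15 by 0.62 ± 0.09 in null Eα than in null cells (adjusted p = 1.88e-04, 2.13e-04 and 4.44e-04). Mrps12 was higher by 0.56 ± 0.16 (adjusted p = 0.0212), with signals of 7.25, 6.68 and 6.67 in null Eα, 6.46, 6.07 and 6.41 in null and 6.66, 6.77 and 6.65 in flox cells. Null Eα replicate 1 was the highest of these, and the call was lost without it (0.37) and without null replicate 2 (0.44). Mrps2 was higher by 0.46 ± 0.07, with signals of 8.87, 8.84 and 8.78 in null Eα, 8.42, 8.34 and 8.34 in null and 8.89, 9.0 and 9.03 in flox cells (adjusted p = 8.15e-04).

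Smaller differences in the same direction were called for Mrpl40, Mrpl48, Mrpl17, Mrps5, Mrps35, Mrps31, Mrpl28, Mrps18b, Mrps16 and Mrpl34, from 0.43 (Mrpl40) to 0.23 (Mrpl34). The Mrpl34 call (adjusted p = 0.0399) was lost without any 1 of the flox arrays, null replicate 2, null replicate 3, null Eα replicate 1 or null Eα replicate 3. The Mrps18b call (adjusted p = 0.0322) was lost without flox replicate 2, null replicate 2, null replicate 3, null Eα replicate 1 or null Eα replicate 2. Of the others, Mrps16 was not called without null Eα replicate 1, null Eα replicate 2 or any 1 of the null arrays, Mrps31 without null replicate 2, null replicate 3, null Eα replicate 1 or null Eα replicate 2, Mrpl28 without null replicate 3, null Eα replicate 1 or null Eα replicate 2, and Mrpl48 without null replicate 2 or null Eα replicate 2.

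Genes called lower in null Eα than in null cells lay mostly on chromosomes 6 and 11. Of the 17 members on these chromosomes 10 were lower and 1, Mrps35, higher, with a median of -0.46. Of the 60 members elsewhere 5 were lower and 15 higher, with a median of 0.02. Other brighter genes of the same chromosomes shifted the same way, by -0.44 on chromosome 6 and -0.35 on chromosome 11, where 56.3% and 58.5% of them were called lower. With each gene set against the brighter genes of its own chromosome, the 17 members gave 5 lower and 5 higher with a median of -0.04, and the members elsewhere gave 5 lower and 22 higher with a median of 0.16. Of all genes on that scale 23.0% were lower and 27.9% higher, with a median of 0.04. These chromosomes were read beside the members after the values of the whole series had been seen.

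On chromosome 11, Mrpl22 was lower by 0.87 ± 0.11, Mrpl38 by 0.73 ± 0.07, Mrps23 by 0.61, Mrpl10 by 0.49 ± 0.09, Mrpl27 by 0.46 and Mrpl45 by 0.43. Mrpl38, without a bacterial counterpart, had signals of 8.83, 8.76 and 8.80 in null Eα, 9.48, 9.48 and 9.61 in null and 9.65, 9.64 and 9.60 in flox cells. Its null Eα arrays lay apart from both other groups, and its difference from flox was -0.83 ± 0.07 in null Eα and -0.10 ± 0.07 in null cells (adjusted p = 3.39e-06 and 0.214). Mrps24, on the same chromosome, differed by 0.16 ± 0.08 between the lines (adjusted p = 0.172).

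On chromosome 6, Mrps33 was lower by 0.82 ± 0.11, Mrpl19 by 0.77 ± 0.08, Mrps25 by 0.70 ± 0.09 and Mrpl35 by 0.66. Mrps33, without a bacterial counterpart, had signals of 8.79, 8.50 and 8.58 in null Eα, 9.46, 9.57 and 9.28 in null and 9.07, 9.29 and 9.31 in flox cells. Mrps25 had signals of 6.89, 6.56 and 6.66 in null Eα, 7.44, 7.36 and 7.41 in null and 7.67, 7.69 and 7.73 in flox cells. Against flox cells all 17 members of these chromosomes were called lower in null Eα cells, with a median of -0.83, and 10 of them in null cells, with a median of -0.30. Of the other brighter genes 69.8% on chromosome 6 and 71.9% on chromosome 11 were lower in null Eα cells too, with medians of -0.65 and -0.62. With each chromosome centred 12 of the 17 were lower and 1 higher in null Eα cells, beside 30.9% and 30.6% of all genes. Among brighter genes centred by chromosome 6 of the 17 were lower and 7 higher, with a median of -0.07. Of all genes on that last scale 28.2% were lower and 42.1% higher.

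The 5 members lower in null Eα than in null cells on other chromosomes were Mrpl9 (-0.79 ± 0.09, adjusted p = 1.93e-04), Mrps21, Mrps6, Mrps18c and Mrps36. Mrpl9 and Mrps21 lie on chromosome 3, where other brighter genes shifted by -0.25. The Mrps36 difference (-0.29 ± 0.09, adjusted p = 0.0276) was not called without null replicate 1, null replicate 3 or null Eα replicate 1.

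**Figure D3:**
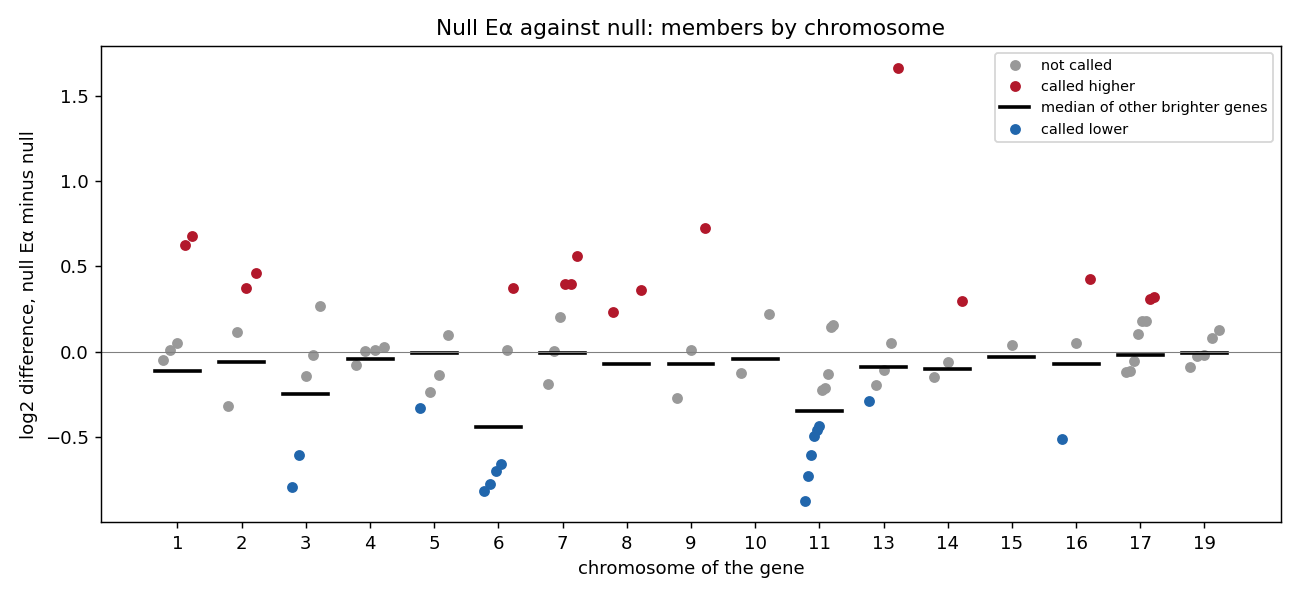
Log2 difference of null Eα minus null for each of the 77 genes by chromosome (points, coloured by call), with the median of the other brighter genes of that chromosome (black bars). Points on chromosomes 6 and 11 lie mostly below 0, as do the bars there (-0.44 and -0.35), and the highest point is Mrpl36 on chromosome 13.

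For 8 members the array held a second feature with a single symbol. Differences had the opposite sign on it in 1 of 8 for null Eα against flox and in 2 of 8 for null against flox and for null Eα against null. Mrps5 gave -1.18 and -1.53 against flox on its second feature, close to -1.15 and -1.52 on the one used. Mrps36 gave -1.35 and -1.04, and Mrpl51 gave -1.03 and -0.97 in place of -0.41 and -0.42. Mrps33 gave -0.68 between null Eα and null on its second feature. Mrpl47, not called on the feature used, stood at -0.07 and -0.33 on the other.

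Many of these genes start close to a neighbour on the opposite strand. Within 1000 bases 23 such pairs with a measured neighbour were found in RefSeq annotation, holding 24 members, since Mrpl46 and Mrps11 form a pair 42 bases apart. Both genes of a pair were called in 8 pairs in null Eα and 9 in null cells against flox, in the same direction in 8 and 8 of them. In each line 6 of these pairs were lower and 2 higher, where 52.1% and 45.0% of brighter genes were called lower. Whether paired genes moved alike more often than unpaired ones was not tested. Mrpl46 and Mrps11 were lower together, by 0.50 and 1.14 in null Eα and by 0.50 and 1.34 in null cells. Mrpl49 fell with Fau, a cytosolic ribosomal protein gene 192 bases away (-1.04 and -1.26), and Mrpl18 rose with Tcp1, a subunit of a cytosolic chaperonin 238 bases away (0.44 and 0.61).

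Other pairs moved together only in part or not at all. Mrpl57 fell by 2.05 and 1.99. Ska3, which acts at the kinetochore and starts 76 bases away, stood at 0.01 in null Eα cells. In null cells Ska3 was called lower, by 0.35. Mrpl43 fell by 1.13 and 1.25, and Twnk, the mitochondrial DNA helicase 116 bases away, stood at 0.16 and was called higher by 0.22 in null cells. Mrps12 shares its start region with Sars2, a mitochondrial aminoacyl-tRNA synthetase gene 147 bases away, and both were called higher in null Eα against null, by 0.56 and 0.70. Sars2 also fell against flox, by 1.12 and 1.82, where Mrps12 stood at 0.17 and -0.39.

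The members with the YY1 motif were Mrpl35, Mrpl36, Mrpl37, Mrpl42, Mrps11, Mrps18a, Mrps24 and Mrps27. All 8 were called lower in null Eα and 7 of 8 in null cells, with 0 higher, against 37 and 33 lower of the 60 members whose promoter lacked the motif, with 11 higher in each line. Of brighter genes, with or without a motif, 52.1% were lower and 18.9% higher in null Eα and 45.0% lower and 26.4% higher in null cells. Of the 25 members with the GABP motif 17 were lower and 5 higher in null Eα and 14 lower and 5 higher in null cells. Of the 14 with the NRF1 motif 7 were lower and 3 higher in each line. These subgroups were formed after the values were known, and no difference between them was tested.

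Genes that serve the mitochondrial ribosome are set beside the brighter genes, of which 52.1% were lower and 18.9% higher in null Eα and 45.0% lower and 26.4% higher in null cells. Of 4 measured mitoribosomal proteins under other symbols 3 were lower in null Eα and 3 lower and 1 higher in null cells, with Gadd45gip1 at -2.15 and -2.83 (on chromosome 8), Dap3 at -1.48 and -1.68, Chchd1 at -1.37 and -1.19 and Ptcd3 at -0.05 and 0.42. Of 22 assembly and rRNA modification genes 15 were lower and 4 higher in null Eα, and 14 lower and 3 higher in null cells (68.2% and 63.6% lower), with medians of -0.41 and -0.45. Malsu1, which binds Mrpl14 in the maturing large subunit, fell by 2.67 and 1.99, Noa1 by 2.03 and 1.75, and Tfb1m, an rRNA methyltransferase, by 1.46 and 1.48. Fastkd2, an RNA-binding protein, rose by 0.82 and 0.71.

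Of 16 mitochondrial aminoacyl-tRNA synthetases 12 were lower and 0 higher in null Eα, and 8 lower and 1 higher in null cells (75% and 50% lower), with medians of -0.47 and -0.39, and Cars2 fell by 1.64 and 2.18. Of 13 translation factors 6 were lower and 1 higher in null Eα, and 6 lower and 3 higher in null cells, with medians of -0.28 and -0.07. The share of these factors called lower, 46.2% in each line, was near that of brighter genes. Mrrf, the ribosome recycling factor, fell by 1.52 and 1.45, whereas Gfm1, an elongation factor, rose by 0.75 and 0.86. Of 15 genes of mitochondrial transcription and RNA processing 10 were lower and 2 higher in null Eα, and 9 lower and 2 higher in null cells (66.7% and 60% lower), with medians of -0.41 and -0.44. Tefm, the elongation factor of mitochondrial transcription, fell by 2.04 and 2.03, and Tfam, which packages mitochondrial DNA, rose by 0.27 and 0.25.

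Transcripts of the respiratory chain, part of which the mitochondrial ribosome makes, were counted in the same way. Of 83 nuclear-encoded respiratory chain genes 53 were lower and 8 higher in null Eα, and 50 lower and 8 higher in null cells (63.9% and 60.2% lower), with medians of -0.42 and -0.51. Of 63 genes picked by symbols of cytosolic ribosomal proteins 28 were lower and 26 higher in null Eα, and 29 lower and 21 higher in null cells (44.4% and 46.0% lower), with medians of -0.04 and -0.08. The symbol rule also took in genes such as Rps19bp1 and Rps23rg1, which only carry a ribosomal protein's name within their symbol. Between null Eα and null cells the medians were 0.00 for the respiratory chain and 0.07 for these 63 genes, beside 0.00 for the mitochondrial ribosome.

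**Figure D4:**
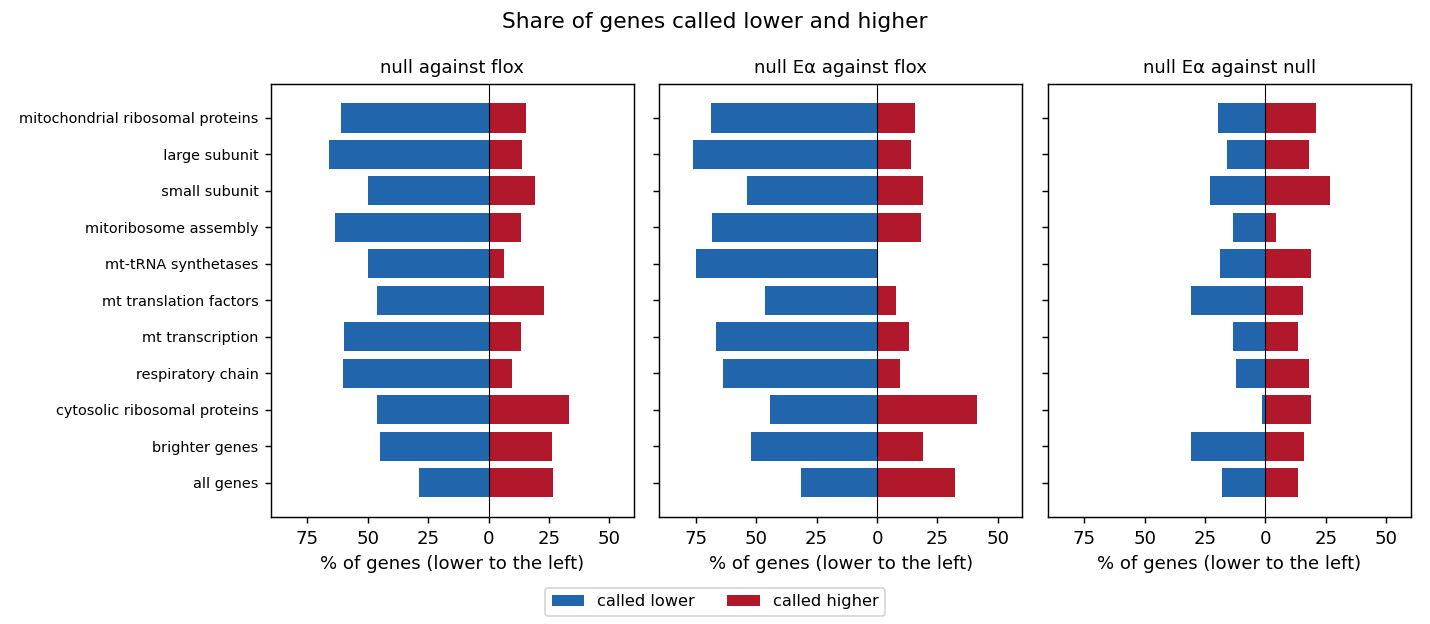
Share of genes called lower (blue, to the left) and higher (red, to the right) in each comparison, in percent, for the 77 genes, their subunits, 6 related groups and the backgrounds of brighter and all genes. The bar to the left reaches 68.8% in null Eα and 61.0% in null cells against flox for mitochondrial ribosomal proteins, against 52.1% and 45.0% for brighter genes.

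Of 12 regulators of nuclear genes for mitochondrial proteins 5 were lower and 2 higher in null Eα and 5 lower and 1 higher in null cells. The share lower, 41.7% in each line, was below the 52.1% and 45.0% of brighter genes. Nrf1 fell by 0.58 and 0.45. Gabpa, the DNA-binding subunit of GABP, was higher by 0.25 in null Eα and stood at -0.14 in null cells, and Yy1 stood at -0.12 and -0.10 without a call. Esrrb, an orphan nuclear receptor of the naive state, had signals of 9.71 to 10.23 in null Eα, 4.70 to 5.30 in null and 10.54 to 10.62 in flox cells. Mycn, a Myc-family factor, had signals of 10.15 to 10.47 in null Eα, 8.38 to 8.51 in null and 10.13 to 10.19 in flox cells. The null arrays of Esrrb and Mycn lay below both other groups, and the part of these regulators in the results was not tested.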

How the data were processed

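Total RNA of 9 mouse embryonic stem cell cultures was labelled with biotin by a whole-transcript sense-target method and hybridised to Affymetrix arrays. The deposited values are log2 signals made by the authors with RMA (version not given), per the submitters' processing notes. They were used as deposited, with depth set by the 3 arrays per group. Of 35556 features, 21789 had 1 symbol, 1621 had several and were left out, and 12146 were unnamed here. For 999 genes with several features the one with the highest mean was kept, which gave 19938 genes.

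Group means were fitted over the 9 arrays together with limma 3.58.1 (R 4.3.3) and moderated with eBayes, with p adjusted by Benjamini-Hochberg over all genes per comparison. The procedure was tested on simulated data. The family, gene lists, member roles and tests were chosen with earlier results of these data known. Fully described members were the 6 largest rises and falls per comparison, the 5 most changed toward flox with the fusion, the 5 most changed alike in both lines, 12 fixed members, and the 3 brightest and 3 dimmest. Other members, neighbours, and motif and chromosome groups were chosen after values were seen. Promoters and gene positions came from RefSeq (GRCm38.p6). Figures were drawn with matplotlib 3.10.9. The 18 alternatives tried are given in the closing section.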

Additional observations from a re-analysis of the deposited data

How the results depend on the processing

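Across 18 alternatives, 42 of the 65 members called in null Eα against flox, 48 of 59 in null against flox and 18 of 31 in null Eα against null were called under every one. Quantile normalization gave 19 members higher in null against flox and medians of -0.18 in null Eα and -0.30 in null cells. An alternative chosen after seeing the data, brighter genes with each chromosome centred, gave 29 lower and 27 higher in null Eα against flox, 21 higher in null against flox and 27 higher in null Eα against null, with medians of -0.07, -0.12 and 0.15. Of all genes on that scale 42.1% were higher in null Eα against flox, where 28.2% were lower. In the other comparisons 43.1% and 27.9% were higher. With arrays centred on their median the member counts were 58 lower and 12 higher, 50 and 11, and 17 and 13. Of all genes 35% were then lower and 23.4% higher in null Eα against flox. In null against flox these shares were 29.9% and 23.1%, and in null Eα against null 20.4% and 10.5%. Signs turned without a call on either side are not listed here. Of differences called on at least 1 side, quantile normalization turned those in null Eα against flox of Mrpl1 (0.23), Mrpl30 (0.24), Mrpl55 (0.12) and Mrps14 (0.23). Centring each chromosome turned Mrpl55 (0.20) and Mrps23 (0.00) in null Eα against flox and Mrpl47 (-0.27) in null against flox. The added alternative turned more. In null Eα against flox it gave Mrpl1 0.31, Mrpl27 0.27, Mrpl39 0.22, Mrpl45 0.26, Mrpl48 0.09, Mrpl50 0.01, Mrpl51 0.35, Mrpl55 0.56, Mrps15 0.24, Mrps18b 0.33, Mrps2 0.26, Mrps23 0.36, Mrps33 0.17, Mrps35 0.29 and Mrps7 0.28. In null against flox it gave Mrpl27 0.31, Mrpl38 0.24, Mrpl39 0.04, Mrpl45 0.27, Mrpl50 0.00, Mrps15 0.32 and Mrps7 0.09, and in null Eα against null Mrpl55 0.20. The cause was not tested.

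Leaving out 1 array gave 64 to 66 members called in null Eα against flox (52 to 54 lower, 12 higher, median -0.52 to -0.48), 55 to 63 in null against flox (44 to 50 lower, 11 to 14 higher, -0.49 to -0.40) and 24 to 35 in null Eα against null (14 to 19 lower, 10 to 16 higher, -0.03 to 0.01). Of all genes 28.5% to 32.6% were then lower and 25.6% to 32.9% higher in null Eα against flox. In null against flox these shares were 26.4% to 29.6% and 21.5% to 28.8%, and in null Eα against null 13.8% to 20.7% and 9.44% to 18.7%. With the replicate block, 65, 60 and 31 members were called. Of all genes 32.1%, 28.9% and 18.6% were then lower and 32.7%, 27.7% and 14.5% higher. Mrpl55 was lost and Mrps21 gained in null Eα against flox, and Mrps12 was gained in null against flox. Correlations of same-numbered deviations ran from -0.035 to 0.258, with 8 of 9 above 0, and the best match in another group bore the same number for most arrays but not all. Since not every correlation passed 0.1, the numbers were not taken as pairs, and pairing remains a hint from the data. Signal over background was not measured, and dim genes such as Mrps36 may differ by more than shown.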
